A study of Mus musculus with 28 samples.

Results

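The 8 genes described here are Ms4a1, Cd79a, Cd79b, Ly6d, Cd74, H2-Aa, H2-Ab1 and H2-Eb1, a set of B cell and antigen presentation genes followed in sorted T cells. They were selected on measured values, namely their higher signal in transient than in unstimulated CD4 cells of day 5, and the probe sets were found by gene symbol in the platform annotation. They make up 8 of the 12393 genes measured and were read by 12 probe sets, of which the one with the highest mean stands for each gene. The label calls them B cell genes, and the 4 class II genes among them are also used by macrophages and dendritic cells.

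RNA from 28 preparations of mouse T cells of the C57BL/6N background was measured, with 1 Affymetrix Mouse 430A2 array per preparation and values on the log2 scale. CD8 cells carried the OT1 T cell receptor transgene and CD4 cells the AND transgene, so that cell type, receptor and antigen cannot be told apart. On day 2, stimulated cells had been cultured for 2 days on anti-CD3 and anti-CD28 antibodies, coated at 10 µg/ml, and unstimulated cells had spent the same time on plain plates, with 3 arrays for each cell type and state. On day 5, continuous cells had been stimulated in culture for 2 days and then kept for 3 days in hosts that expressed their antigen (labelled dtg-O or dtg-M), transient cells had been stimulated in the same way and kept in antigen-free hosts, and unstimulated cells had gone through plain culture and antigen-free hosts. Every day 5 group had 3 arrays, except that transient and unstimulated CD4 cells had 2 each. All cultures held interleukin 7 at 5 ng/ml, the day 5 cells came from spleen and subcutaneous lymph nodes of the hosts, the cells were sorted by flow cytometry (repeatedly on day 5, to a purity stated as nearly complete), and the RNA was amplified in repeated rounds before labelling. The series text calls the replicates independent and biological.

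B cells sense antigen through a membrane immunoglobulin that signals through the paired chains CD79A and CD79B, and they take up antigen and show its peptides on MHC class II molecules to CD4 T cells. In a class II molecule an alpha and a beta chain are joined in the endoplasmic reticulum with the invariant chain CD74, which blocks the groove until a peptide is loaded. In the mouse, class II genes are active mainly in B cells, dendritic cells and macrophages, while resting and activated T cells make little class II. Among the 8 genes, Ms4a1 encodes the B cell surface protein CD20, Cd79a and Cd79b encode the signalling chains of the B cell receptor, and Ly6d encodes a surface protein that marks B cell progenitors and B cells. Cd74 encodes the invariant chain, H2-Aa and H2-Ab1 the alpha and beta chains of I-A, and H2-Eb1 the beta chain of I-E.

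Promoter sequences of 3 of the 8 genes were found in the RefSeq promoter table of build GRCm38.p6, each with 250 bases before and 50 after the start of the gene. They are shown because the class II genes moved together on the arrays and class II promoters are known to share a Y box, which binds the factor NF-Y. Capitals mark the Y box core TGATTGG. They lie at chr17:34287774-34288073 on the minus strand for H2-Aa, at chr17:34305617-34305916 on the plus strand for H2-Eb1 and at chr7:24897247-24897546 on the plus strand for Cd79a.
H2-Aa: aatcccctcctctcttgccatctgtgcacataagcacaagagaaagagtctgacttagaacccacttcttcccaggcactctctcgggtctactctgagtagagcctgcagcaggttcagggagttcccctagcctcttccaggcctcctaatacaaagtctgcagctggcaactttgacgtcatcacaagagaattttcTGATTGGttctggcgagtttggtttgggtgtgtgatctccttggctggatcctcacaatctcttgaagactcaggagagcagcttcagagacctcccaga
H2-Eb1: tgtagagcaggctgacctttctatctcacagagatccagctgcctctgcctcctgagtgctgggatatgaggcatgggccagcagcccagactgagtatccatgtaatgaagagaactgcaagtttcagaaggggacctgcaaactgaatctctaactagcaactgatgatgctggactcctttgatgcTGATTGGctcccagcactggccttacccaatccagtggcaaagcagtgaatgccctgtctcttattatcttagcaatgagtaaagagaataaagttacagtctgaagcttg
Cd79a: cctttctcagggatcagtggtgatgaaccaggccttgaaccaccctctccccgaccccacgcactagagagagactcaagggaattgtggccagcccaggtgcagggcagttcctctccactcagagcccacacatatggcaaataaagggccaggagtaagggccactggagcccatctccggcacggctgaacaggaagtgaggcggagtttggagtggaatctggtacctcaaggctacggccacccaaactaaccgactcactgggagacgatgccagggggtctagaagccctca
The Y box core was found in both class II promoters, 50 bases before the start of H2-Aa and 61 before that of H2-Eb1, on the strand of the gene, and 7.82% of the 32851 promoters in the table hold it on either strand. Also searched on both strands were the octamer core TTTGCAT, which occurs in 4.63% of all promoters, and CCCNNGGG, a core bound by the B cell factor EBF, which occurs in 13.7%. Neither set of letters is in the windows of the 3 genes, and the Y box core is not in the window of Cd79a.

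Several arrays stood apart. On day 2, replicate 3 labelled unstimulated CD4 had Cd4 at 5.40 and Cd8a at 9.88, and replicate 3 labelled unstimulated CD8 had Cd8a at 5.78, so that both went against their labels and are called libraries so labelled. Their medians over all probe sets were 4.83 and 4.97, against 6.29 to 6.53 on the other 26 arrays. On day 5 Cd8a lay between 11.7 and 13.0 on the 9 CD8 arrays and between 5.34 and 6.22 on the 7 CD4 arrays. Cd4 was at 7.68 and 7.88 on the transient CD4 arrays, between the 9.22 to 9.86 of the other CD4 arrays and the 6.17 to 7.25 of the CD8 arrays.

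In CD4 cells on day 5, both transient arrays had high signal for Ms4a1, Ly6d and Cd79b and a smaller difference for Cd79a, the other of the 4 B cell lineage genes. These differences, from which the genes were chosen, are described with no test. Ms4a1 was at 5.13, 5.03 and 5.13 on the continuous arrays, 12.85 and 11.13 on the transient arrays, and 7.33 and 5.30 on the unstimulated arrays. Ly6d was at 4.97, 4.97 and 5.05 on the continuous arrays, 11.84 and 10.63 on the transient arrays, and 5.67 and 5.20 on the unstimulated arrays. Cd79b was at 5.73, 4.93 and 4.93 on the continuous arrays, 11.91 and 9.90 on the transient arrays, and 6.62 and 5.17 on the unstimulated arrays. For these 3 genes both transient arrays lay far above every other CD4 array, and the first unstimulated array lay above the second. Cd79a moved less than these 3 genes, with 5.03, 4.96 and 4.80 on the continuous arrays, 6.88 and 6.37 on the transient arrays, and 5.84 and 5.28 on the unstimulated arrays.

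Ly6d, Ms4a1 and Cd79b had the third, the fourth and the fifth highest difference of transient minus unstimulated CD4 cells among all genes, at 5.80, 5.67 and 5.01. For Ms4a1 the means were 11.99 ± 1.22 in transient cells and 6.32 ± 1.44 in unstimulated cells (SD, n = 2 each), and no fold is given because Ms4a1 on the second unstimulated array was not clearly above background. For Cd79a the difference was 1.07. The difference of continuous minus transient cells was -6.89 for Ms4a1, -6.24 for Ly6d, -5.71 for Cd79b and -1.70 for Cd79a.

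The 4 class II genes followed the same order of groups, with more spread among the continuous and unstimulated arrays. H2-Aa was at 8.79, 4.58 and 5.19 on the continuous arrays, 11.31 and 10.58 on the transient arrays, and 8.26 and 5.86 on the unstimulated arrays. H2-Eb1 was at 9.46, 6.21 and 5.95 on the continuous arrays, 11.89 and 11.08 on the transient arrays, and 8.46 and 6.12 on the unstimulated arrays. Unlike Ms4a1, Ly6d and Cd79a, both had raised signal on the first continuous array, above that of the first unstimulated array. H2-Ab1 was at 7.67, 4.52 and 4.43 on the continuous arrays, 9.71 and 8.97 on the transient arrays, and 6.51 and 4.78 on the unstimulated arrays. Cd74 was at 8.90, 6.06 and 6.22 on the continuous arrays, 10.17 and 9.44 on the transient arrays, and 8.25 and 7.12 on the unstimulated arrays. Transient minus unstimulated cells differed by 4.20 for H2-Eb1, 3.88 for H2-Aa, 3.69 for H2-Ab1 and 2.12 for Cd74.

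In transient over unstimulated CD4 cells the arrays of the 8 genes did not overlap and were higher for 8 of 8, where 33.1% of all genes were higher and 29.3% lower without overlap, with a median difference of 4.04 over the 8 genes and 0.04 over all genes. In continuous against transient CD4 cells 8 of 8 were lower without overlap, where 31.3% of all genes were lower and 25.3% higher, with medians of -4.52 and -0.06. In continuous against unstimulated CD4 cells 3 of 8 were lower without overlap (Ms4a1, Cd79a and Ly6d), where 26.2% of all genes were lower and 23.2% higher, with medians of -0.63 and -0.02. The first count follows from how the genes were chosen, and the 3 comparisons share arrays. Without the first unstimulated array the median of transient minus unstimulated cells was 5.23, and without the second it was 2.93. Without the first continuous array the median of continuous minus transient cells was -5.69. The median of continuous minus unstimulated cells lay between -1.22, without the second unstimulated array, and -0.02, without the first. In such bulk samples, fewer cells of a type and less RNA per cell cannot be told apart.

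**Figure D1:**
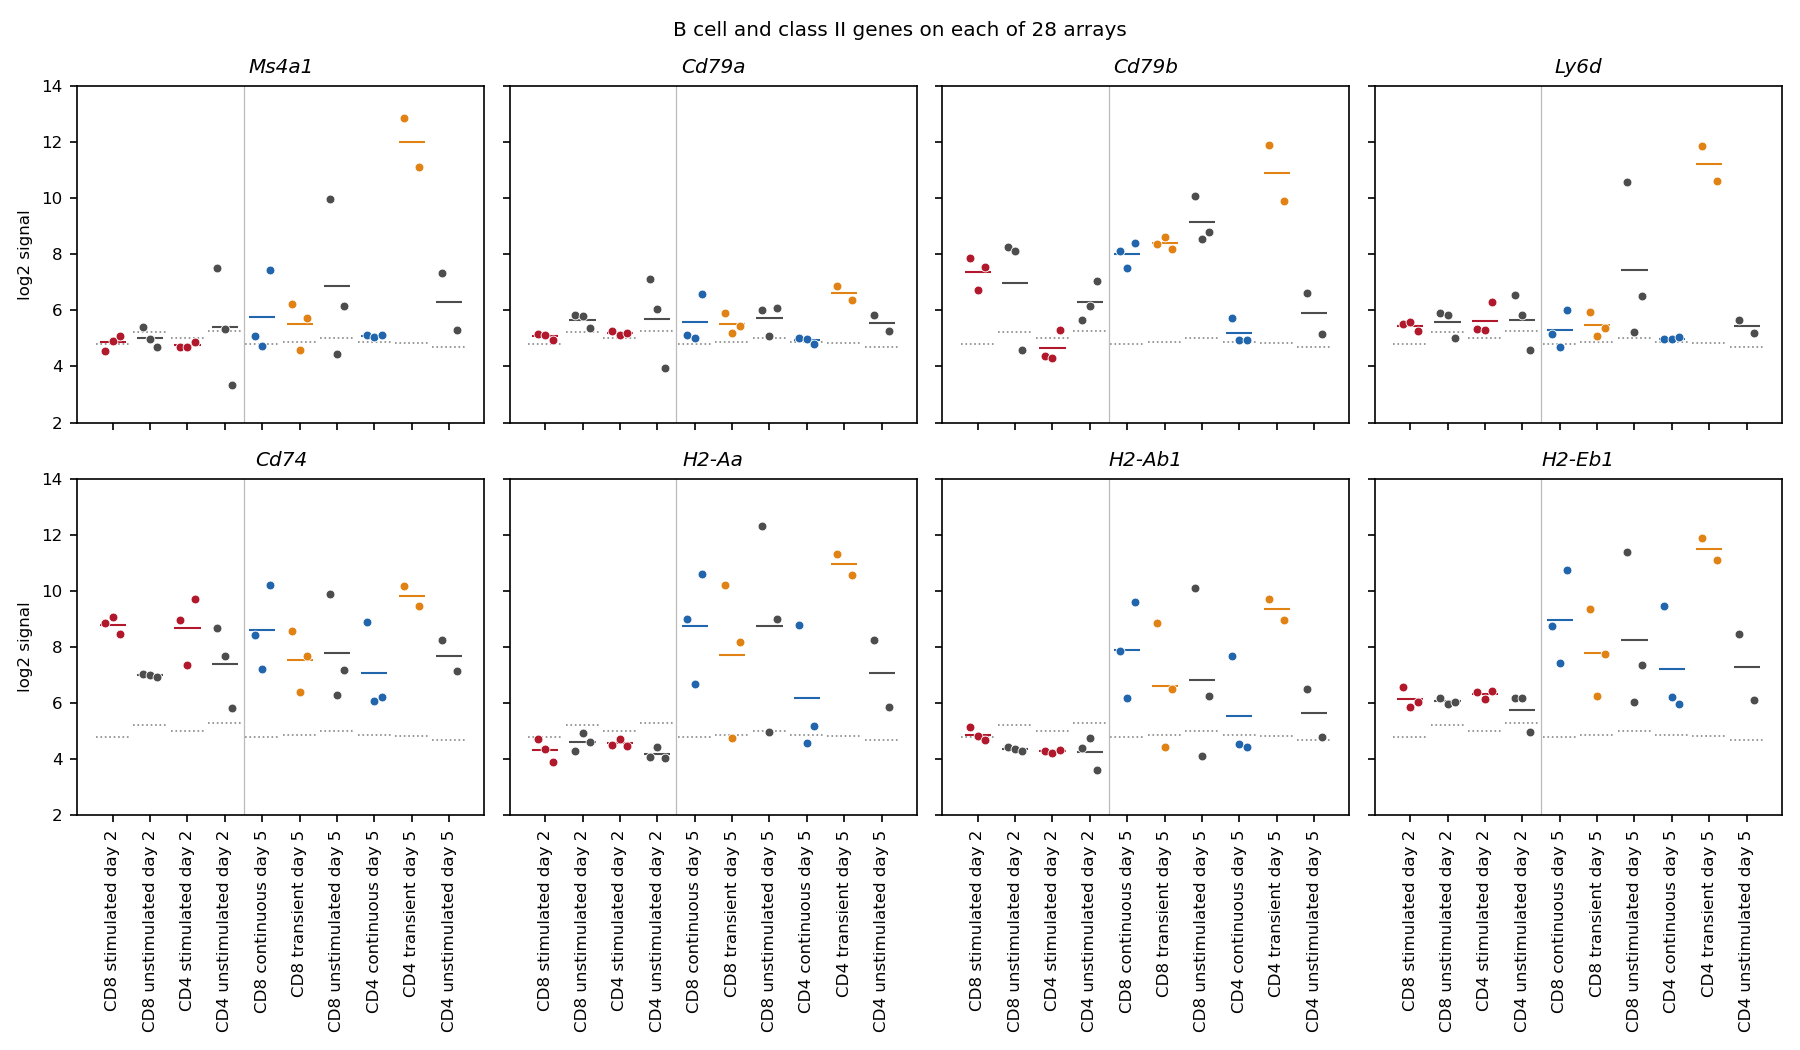
Log2 signal of the 8 genes on the 28 arrays, 1 point for each array and a solid line for each group mean, with a dotted line at the mean over the group's arrays of the median signal of 31 genes of other organs. Both CD4 transient arrays are high for Ms4a1 (12.85 and 11.13) and Ly6d, the first CD8 unstimulated array stands alone in its group (9.98 for Ms4a1), and the class II genes are spread in most day 5 groups.

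Other B cell genes were also high on the transient CD4 arrays. Of 22 further B cell lineage genes measured, 14 lay above all 5 other CD4 arrays on both transient arrays, and 6 did so by more than 1 log2 unit, where 20.1% and 0.855% of all genes did. The 6 are Fcrla, a B cell Fc receptor-like protein, at 9.47 and 8.13 on the transient arrays, the kinase gene Syk at 8.83 and 7.86, the adaptor of B cell receptor signalling Blnk at 8.66 and 5.94, and the transcription factor genes Spib at 8.71 and 6.19, Mef2c at 9.97 and 7.42 and Bcl11a at 8.82 and 5.19. The highest value on the 5 other arrays was 4.58 for Fcrla, 5.77 for Syk, 4.27 for Blnk, 4.52 for Spib, 5.49 for Mef2c and 3.28 for Bcl11a. These 6 were named after their values were seen. The B cell master factor genes Pax5 (5.09 and 4.93 on the transient arrays, at most 4.61 on the others) and Ebf1 (4.66 and 3.90, at most 3.73 on the others) had low signal on all 7 arrays. Cd37, a tetraspanin gene that T cells also use, went the other way, at 8.79 and 9.03 on the transient arrays and 10.6 to 11.2 on the others.

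The 22 genes were not raised equally on the 2 transient arrays. The first array was higher than the second for 21 of 22 B cell lineage genes, by more than 1 log2 unit for 13. The second array was higher by more than 1 for 3 of 6 immunoglobulin genes, 10 of 18 macrophage and monocyte genes and 5 of 7 neutrophil genes. Jchain, which encodes the joining chain of secreted antibodies, was at 12.3 on the first and 13.8 on the second transient array, and at 4.07 to 8.73 on the other CD4 arrays. Igha, the heavy chain gene of immunoglobulin A, was at 12.2 and 14.3 on the transient arrays and at 6.87 to 10.5 on the others. Ighg3, an immunoglobulin heavy chain gene, was higher on the first transient array, at 10.4, than on the second, at 8.79, and at 5.43 to 5.97 on the others. Igkv1-117 was at 3.65 and 3.64 on the transient arrays and at 3.61 to 3.87 on the others. Of the 6 immunoglobulin genes, 5 lay above all 5 other CD4 arrays on both transient arrays by more than 1 log2 unit, where 0.855% of all genes did. So most B cell lineage genes were higher on the first transient array, most macrophage and neutrophil genes on the second, and immunoglobulin genes differed among themselves.

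**Figure D2:**
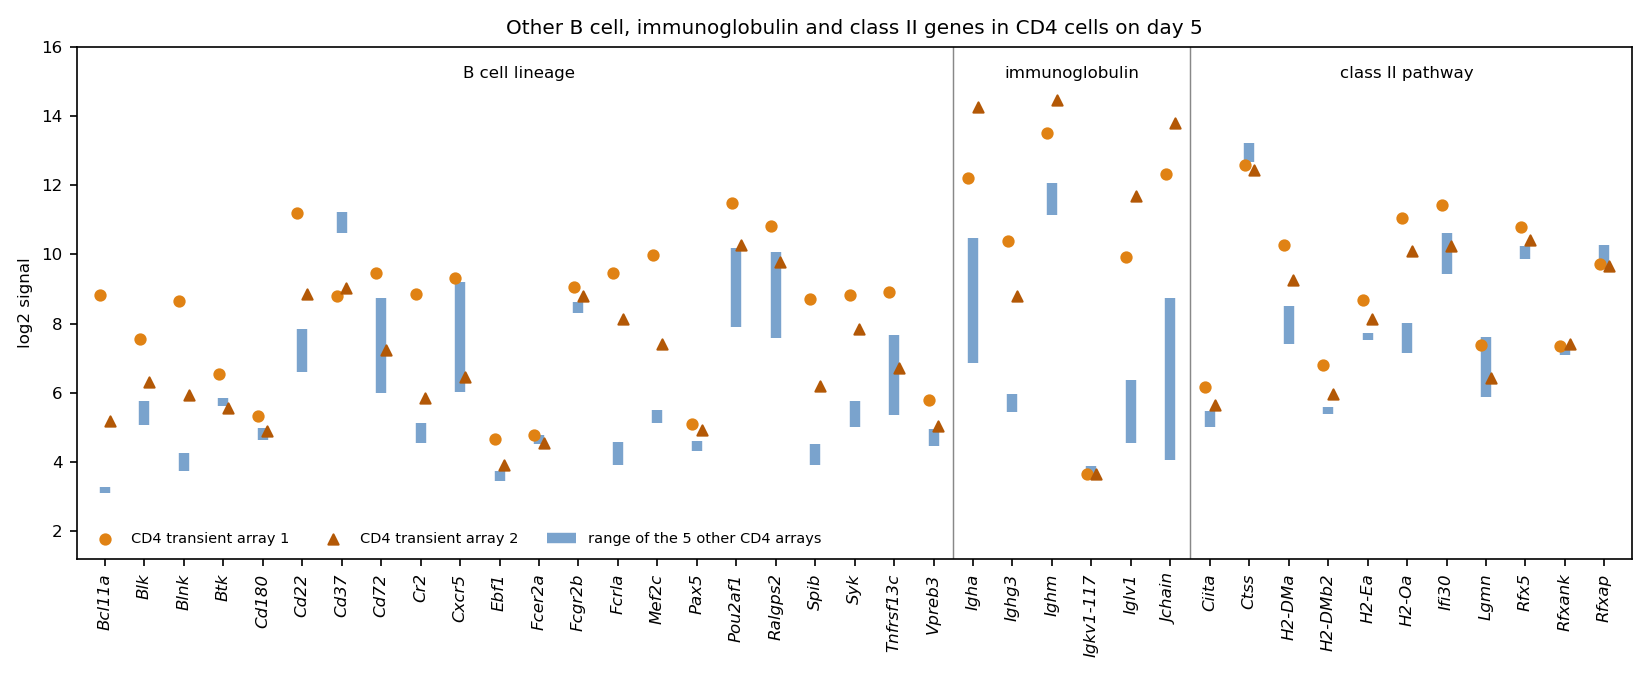
Log2 signal of 22 B cell lineage, 6 immunoglobulin and 11 class II pathway genes in CD4 cells on day 5, with circles and triangles for the first and second transient array and bars for the range of the 5 continuous and unstimulated arrays. Fcrla, Syk, Blnk, Spib, Mef2c and Bcl11a lie above the bars by more than 1 log2 unit on both transient arrays, while Pax5 and Ebf1 stay low.

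In the class II pathway 6 of 11 measured genes lay above the other CD4 arrays on both transient arrays, where 20.1% of all genes did. H2-Oa, a chain of the peptide-exchange regulator H2-O, was at 11.1 and 10.1 on the transient arrays and at most 8.01 on the others. It was the only one of the 11 above the others by more than 1, where 0.855% of all genes were. H2-DMa, a chain of the peptide-loading factor H2-DM, was at 10.3 and 9.27 on the transient arrays and at most 8.50 on the others. Ciita, the class II transactivator that switches these genes on, was at 6.16 and 5.65 on the transient arrays and 5.00 to 5.48 on the others. None of 10 class I pathway genes and none of 13 T cell genes lay above the other arrays in this way, as against 3 of 10 dendritic cell genes, 0 of 18 macrophage and monocyte genes, 0 of 7 neutrophil genes, 0 of 4 NK cell genes, 1 of 4 red cell genes and 3 of 31 genes of other organs. In transient against unstimulated CD4 cells 9 of 10 class I pathway genes and 10 of 13 T cell genes were lower without overlap. Of all genes 29.3% were. In continuous against transient cells 7 of 10 and 7 of 13 were higher without overlap, and 0 and 5 lower. Of all genes 25.3% were higher and 31.3% lower there.

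In CD4 cells of day 5 the dendritic cell mean and a measure of RNA truncation set both transient arrays apart from the other arrays, while the macrophage and neutrophil means did not. The part of other cells and of RNA quality in the result was not tested. The mean over 18 macrophage and monocyte genes was 5.30 to 7.86 on the continuous arrays, 6.64 and 8.21 on the transient arrays, and 7.37 and 5.87 on the unstimulated arrays, so the groups overlapped. The macrophage receptor gene Csf1r was at 10.05, 5.81 and 5.83 on the continuous arrays, 9.50 and 12.31 on the transient arrays, and 9.78 and 7.50 on the unstimulated arrays. The mean over 7 neutrophil genes was 5.03 to 8.17 on the continuous arrays, 6.60 and 9.49 on the transient arrays, and 8.48 and 4.97 on the unstimulated arrays, again with overlap. The mean over 10 dendritic cell genes was 5.66 to 5.79, 6.09 and 6.56, and 5.85 and 5.61 in the same order of groups. The mean over 13 T cell genes was 10.8 to 11.2 on the continuous arrays, 10.9 and 10.8 on the transient arrays, and 11.6 and 11.7 on the unstimulated arrays. The difference between the 3' and 5' beta-actin control probe sets, a measure of RNA truncation, was 2.73 and 2.42 on the transient CD4 arrays, against 0.40 to 0.98 on the other CD4 arrays of day 5.

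In CD8 cells on day 5 Ms4a1 and Ly6d were highest on the first unstimulated array, the class II genes varied widely among the arrays of every group, and Cd79b lay at 7.51 or above on all 9 arrays. Ms4a1 was at 5.07, 4.74 and 7.46 on the continuous arrays, 6.22, 4.58 and 5.72 on the transient arrays, and 9.98, 4.44 and 6.17 on the unstimulated arrays. Ly6d was at 5.16, 4.68 and 6.02 on the continuous arrays, 5.95, 5.07 and 5.39 on the transient arrays, and 10.57, 5.23 and 6.50 on the unstimulated arrays. H2-Aa was at 8.99, 6.68 and 10.61 on the continuous arrays, 10.20, 4.76 and 8.16 on the transient arrays, and 12.30, 4.96 and 9.01 on the unstimulated arrays. The third continuous, the first transient and the first unstimulated array were the highest of their groups for these 3 genes, and the second array was the lowest in each group. H2-Eb1 was at 8.75, 7.44 and 10.72 on the continuous arrays, 9.34, 6.24 and 7.74 on the transient arrays, and 11.39, 6.05 and 7.35 on the unstimulated arrays. H2-Ab1 was at 7.84, 6.16 and 9.61 on the continuous arrays, 8.85, 4.42 and 6.49 on the transient arrays, and 10.08, 4.12 and 6.26 on the unstimulated arrays. Cd74 was at 8.41, 7.20 and 10.19 on the continuous arrays, 8.57, 6.40 and 7.66 on the transient arrays, and 9.88, 6.27 and 7.16 on the unstimulated arrays. The class II genes kept the same order of arrays within each group as H2-Aa. Cd79a ranged from 5.01 to 6.59 over the 9 arrays.

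The replicate spread of the 8 genes was wide in these groups. In unstimulated CD8 cells the median SD was 2.79 over the 8 genes and 0.18 over all genes, and 8 of 8 were above the 95th percentile of all genes. In continuous CD8 cells the median SD was 1.50 over the 8 genes and 0.15 over all genes, with 7 of 8 above that percentile. In transient CD8 cells it was 0.97 and 0.15, with 6 of 8. In stimulated cells of day 2 it was 0.29 and 0.15 for CD8 cells and 0.14 and 0.14 for CD4 cells, and 1 and 3 of the 8 genes were above the percentile.

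None of the 8 genes passed the test of limma across all genes in the CD8 comparisons of day 5. In continuous against transient CD8 cells 0 of 8 were called, where 27.2% of all genes were, and 0 of 8 had an unadjusted p below 0.05. In continuous against unstimulated CD8 cells 0 of 8 were called, where 47.3% of all genes were, and 2 of 8 had an unadjusted p below 0.05. In transient against unstimulated CD8 cells 0 of 8 were called, where 31.8% of all genes were, and 0 of 8 had an unadjusted p below 0.05. The closest were Ly6d at -2.14 (SE 0.94, adjusted p = 0.0761) and Cd79b at -1.13 (SE 0.52, adjusted p = 0.0905) in continuous minus unstimulated cells, and Ly6d at -1.96 (SE 0.94, adjusted p = 0.131) in transient minus unstimulated cells. The SE of H2-Aa in each of these comparisons was 1.78, against a median of 0.15 over all genes. Cd79b was the only member whose arrays did not overlap in any of the 3, being lower in continuous than in unstimulated cells, where 32.1% of all genes were lower and 23% higher without overlap. In the others 0 of 8 were without overlap, where 23.1% of all genes were lower in transient against unstimulated and 23.3% in continuous against transient cells.

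The first unstimulated CD8 array carried much of the direction of these values. With it, 0 of 8 genes were higher in transient than in unstimulated CD8 cells, with a median of -0.62 beside -0.08 over all genes. Without it, 5 of 8 were higher and the median was 0.46, with 0 of 8 called. In continuous minus unstimulated CD8 cells the median was -0.07 with it and 1.11 without it. Without the second unstimulated array Ly6d passed the test, at -3.24 (adjusted p = 0.00802) in continuous minus unstimulated and at -3.06 (adjusted p = 0.0170) in transient minus unstimulated cells. In these fits 42.8% and 27.2% of all genes were called.

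**Figure D3:**
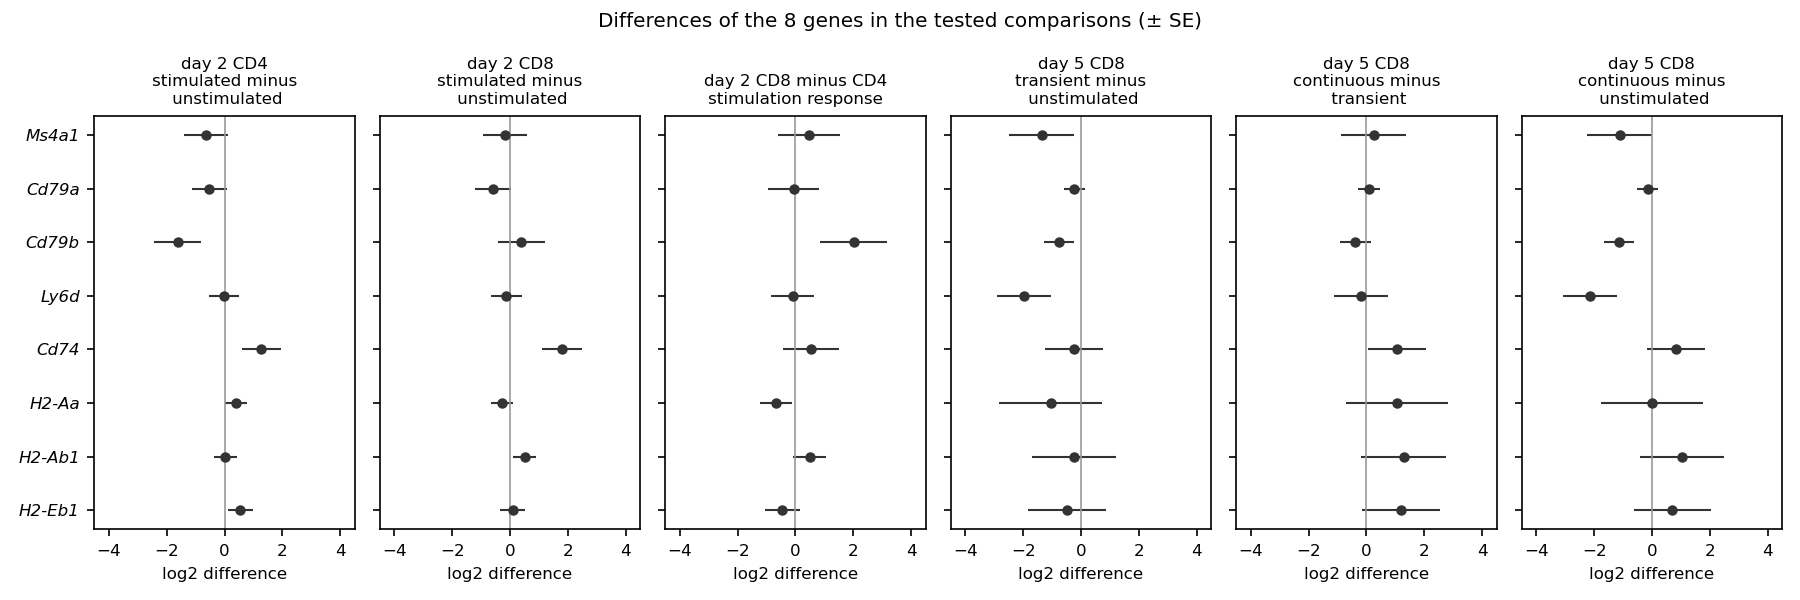
Log2 differences of the 8 genes in the 6 tested comparisons, with points for the fitted difference and bars of 1 SE. All points lie between -2.14 and 2.01, and none passed an adjusted p of 0.05.

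Other genes of the class II pathway did pass in CD8 cells. In continuous against transient cells 4 of 11 class II pathway genes fell and 0 rose, and in continuous against unstimulated cells 4 of 11 fell and 0 rose, where 13.6% of all genes fell in the first and 25.9% in the second. The list medians were -0.22 and -0.16 beside -0.05 and -0.12 over all genes. H2-DMa was at 7.99, 8.03 and 9.09 on the continuous arrays, 9.34, 9.96 and 9.79 on the transient arrays, and 10.72, 10.48 and 10.48 on the unstimulated arrays. It fell by 2.19 in continuous against unstimulated cells (SE 0.32, adjusted p = 9.27e-05) and by 1.33 in continuous against transient cells (SE 0.32, adjusted p = 0.00715), and the second call was lost with all 28 arrays in the fit (adjusted p = 0.434, the highest of a range from 0.000235 over the alternatives). H2-Oa was at 6.73, 7.11 and 9.04 on the continuous arrays, 9.35, 9.66 and 9.36 on the transient arrays, and 9.67, 9.42 and 9.96 on the unstimulated arrays. It fell by 2.06 in continuous against unstimulated cells (SE 0.46, adjusted p = 0.00239) and by 1.83 in continuous against transient cells (SE 0.46, adjusted p = 0.00907), and the second call was lost with all 28 arrays in the fit (adjusted p = 0.149, the highest of a range from 4.14e-05) and without the first continuous array (-1.38, adjusted p = 0.0505). Both genes were lower on every continuous CD8 array than on every transient and unstimulated one, and they were not low on the second transient and unstimulated arrays, on which H2-Aa was at 4.76 and 4.96. In transient against unstimulated cells 2 of 11 rose (Ctss by 0.50 and Rfxap by 0.50) and 1 fell, H2-Ea by 0.50, the I-E alpha gene, which is known to be silent in the haplotype of C57BL/6 mice, and these 3 calls were lost with some alternatives.

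Of 22 B cell lineage genes, 1 rose and 2 fell in transient against unstimulated CD8 cells, where 16.3% of all genes rose and 15.5% fell. In continuous against transient cells 0 of 22 rose and 1 fell, where 13.6% of all genes rose and 13.6% fell. In continuous against unstimulated cells 1 of 22 rose and 4 fell, where 21.4% rose and 25.9% fell. Cd37 rose by 2.63 in transient against unstimulated cells (SE 0.23, adjusted p = 3.27e-06) and by 1.52 in continuous against unstimulated cells (SE 0.23, adjusted p = 0.000142). Ralgps2, an exchange factor gene, fell by 2.51 in continuous against unstimulated cells (SE 0.26, adjusted p = 5.39e-06). Immunoglobulin genes had 0 of 6 called in the first pair of comparisons and 1 of 6, lower, in the last. Macrophage and monocyte genes had 1 of 18 called in the 3 comparisons, Vcam1 in continuous against unstimulated cells (-0.56, adjusted p = 0.0178, up to 0.470 over the alternatives), and neutrophil genes had 0 of 7. Of 10 class I pathway genes, 7 rose and 0 fell in transient against unstimulated cells, where 16.3% of all genes rose. The calls of Erap1, Psmb9 and Psme1 among them were lost with all 28 arrays in one fit (adjusted p = 0.576, 0.771 and 0.645, the highest over their alternatives), a fit in which 239 genes were called in place of 3937. Of 13 T cell genes, 7 rose and 1 fell. In that comparison 0 of 10 dendritic cell genes and 0 of 4 NK cell genes passed, and 1 of 4 red cell genes and 5 of 31 genes of other organs fell.

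On arrays that were high for several of the 8 genes, immunoglobulin genes and, on most of them, myeloid genes were high too, and their part in the result was not tested. On the first unstimulated CD8 array, 15 of 18 macrophage and monocyte genes, 6 of 7 neutrophil genes, 4 of 6 immunoglobulin genes and 8 of 22 B cell lineage genes were more than 1 log2 unit above the mean of the other 2 arrays. On the first transient CD8 array this held for 11 of 18, 5 of 7, 4 of 6 and 0 of 22 genes of the same lists. On the third continuous CD8 array it held for 1 of 18, 0 of 7, 5 of 6 and 4 of 22. On the first continuous CD4 array it held for 14 of 18, 5 of 7, 2 of 6 and 0 of 22. So, against the other arrays of the group, raised class II signal came with raised macrophage genes on 3 of these 4 arrays, and on the third continuous CD8 array mainly with immunoglobulin genes. The macrophage and monocyte mean on this last array was 6.21, between 6.88 on the first and 5.60 on the second continuous CD8 array. Its count of 1 of 18 therefore depends on the arrays it is set against.

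The 8 genes differed in which of these arrays raised them. On the first continuous CD4 array H2-Aa was 3.90 above the mean of the other 2 arrays and H2-Eb1 3.38, while Cd79b differed by 0.80, Cd79a by 0.14, Ms4a1 by 0.04 and Ly6d by -0.04. On the first transient CD8 array the difference was 3.74 for H2-Aa, 1.07 for Ms4a1 and 0.72 for Ly6d. On the first unstimulated CD8 array it was 5.32 for H2-Aa, 4.68 for Ms4a1 and 4.70 for Ly6d. The beta-actin difference on this last array was 2.44, within the 1.92 to 2.44 of the 3 unstimulated CD8 arrays, and it was 0.31 to 1.02 on the continuous and transient CD8 arrays.

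**Figure D4:**
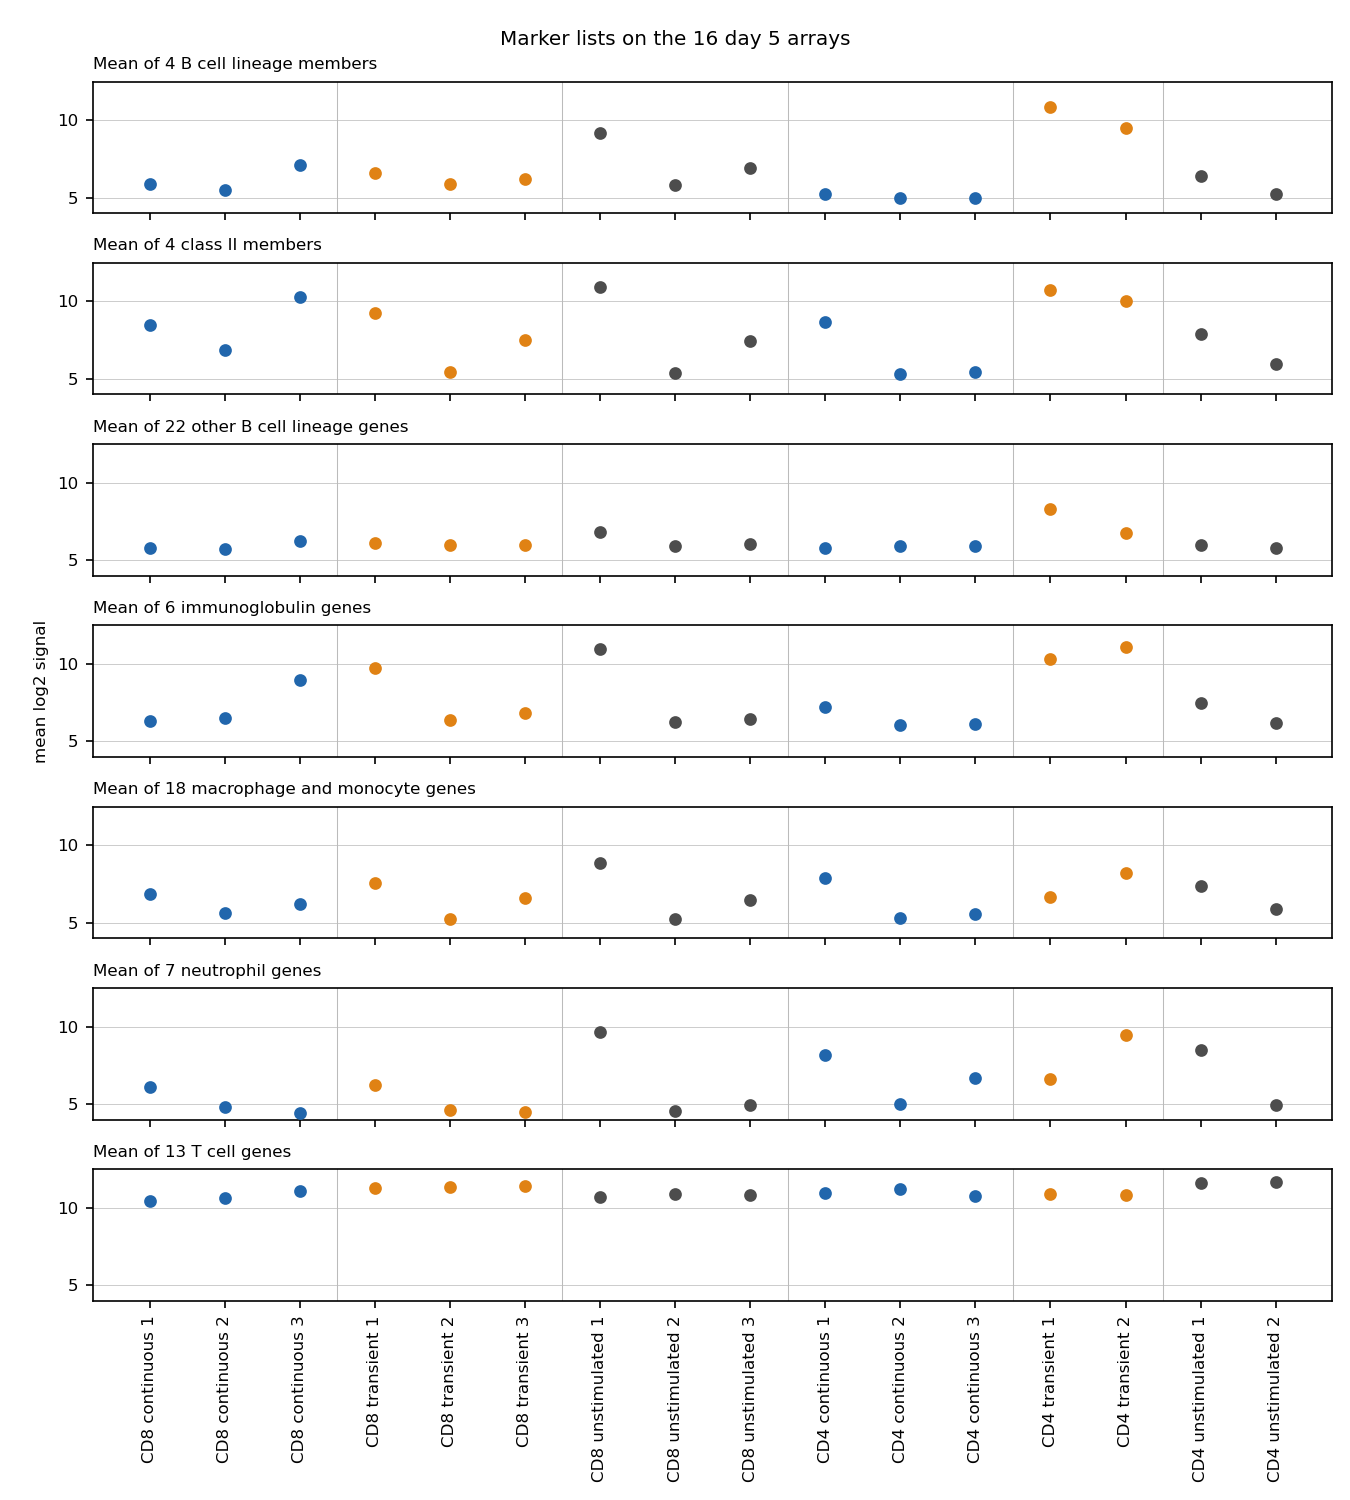
Mean log2 signal of the B cell lineage and class II members and of 5 marker lists on each of the 16 day 5 arrays, 1 point for each array, with vertical lines between groups. The class II members follow the macrophage and monocyte genes on most arrays, the B cell lineage members are high on the CD4 transient arrays and the first CD8 unstimulated array, and the T cell genes stay between 10.4 and 11.7.

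The genes with the most similar profiles over the 16 day 5 arrays differed between the 2 groups of members. These arrays include the CD4 arrays on which the members were chosen, so the likeness is only a description. The measure was the root mean square difference between profiles centred on their own means, for which the median gene had 1.69 log2 units from the mean of the 4 B cell lineage genes and 1.97 from the mean of the 4 class II genes. Nearest to the B cell lineage genes were BC028528 (0.50), Fcrla (0.61), the desaturase gene Scd1 (0.62), Blnk (0.66), Spib (0.67) and the phospholipase gene Plcg2 (0.71), followed by Mef2c, Bcl11a, Syk, Napsa, Oosp1 and Cyp4f18. Nearest to the class II genes were Plbd1 (0.75), the protease gene Ctsh (0.81), Igk (0.99), the macrophage gene Mpeg1 (1.03) and Ly86 (1.10), followed by Napsa, Igkv8-30, BC028528, Klf4, Clec4n, Tmem51 and Naip5. BC028528 and Napsa are on both lists. On the 12 day 2 arrays the B cell lineage neighbours were not among the nearest, with ranks between 306 and 7770 of 12393. The class II neighbours had day 2 ranks between 746 and 12136.

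Cd79b differed from the other members in CD8 cells. It was at 8.10, 7.51 and 8.42 on the continuous arrays, 8.37, 8.62 and 8.18 on the transient arrays, and 10.09, 8.56 and 8.78 on the unstimulated arrays of day 5. The second arrays, lowest for Ms4a1 and H2-Aa, were not low for Cd79b in transient and unstimulated cells. On day 5, in a choice made after the values were seen, without the 2 transient CD4 arrays and the first unstimulated CD8 array, Cd79b lay between 7.51 and 8.78 on 8 CD8 arrays and between 4.93 and 6.62 on 5 CD4 arrays, with no overlap, where 0.888% of all genes were higher in CD8 cells without overlap. With all day 5 arrays the cell types overlapped, since the transient CD4 arrays reached 11.91. On day 2 the stimulated CD8 arrays had 7.87, 6.74 and 7.54 and the stimulated CD4 arrays 4.38, 4.30 and 5.30, again with no overlap, where 9.24% of all genes were higher in CD8 cells. H2-Ab1 was also higher there without overlap, at 4.68 to 5.12 on the stimulated CD8 and 4.22 to 4.33 on the stimulated CD4 arrays, which is near background. The unstimulated arrays of day 2 had Cd79b at 8.27, 8.11 and 4.60 for CD8 and at 5.65, 6.14 and 7.06 for CD4 cells. The last value of each is from the library that went against its label, and with these libraries the cell types overlapped. These levels are a description with no test, and cell type goes with receptor and antigen here. Cd79a, its partner in the B cell receptor, had 5.14, 5.13 and 4.96 on the stimulated CD8 arrays and 5.25, 5.11 and 5.18 on the stimulated CD4 arrays of day 2. The probe set of Cd79a reached only 6.88 and 6.37 on the transient CD4 arrays of day 5, where Cd79b was at 11.91 and 9.90. Its low signal therefore says little about whether Cd79a goes with Cd79b.

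**Figure D5:**
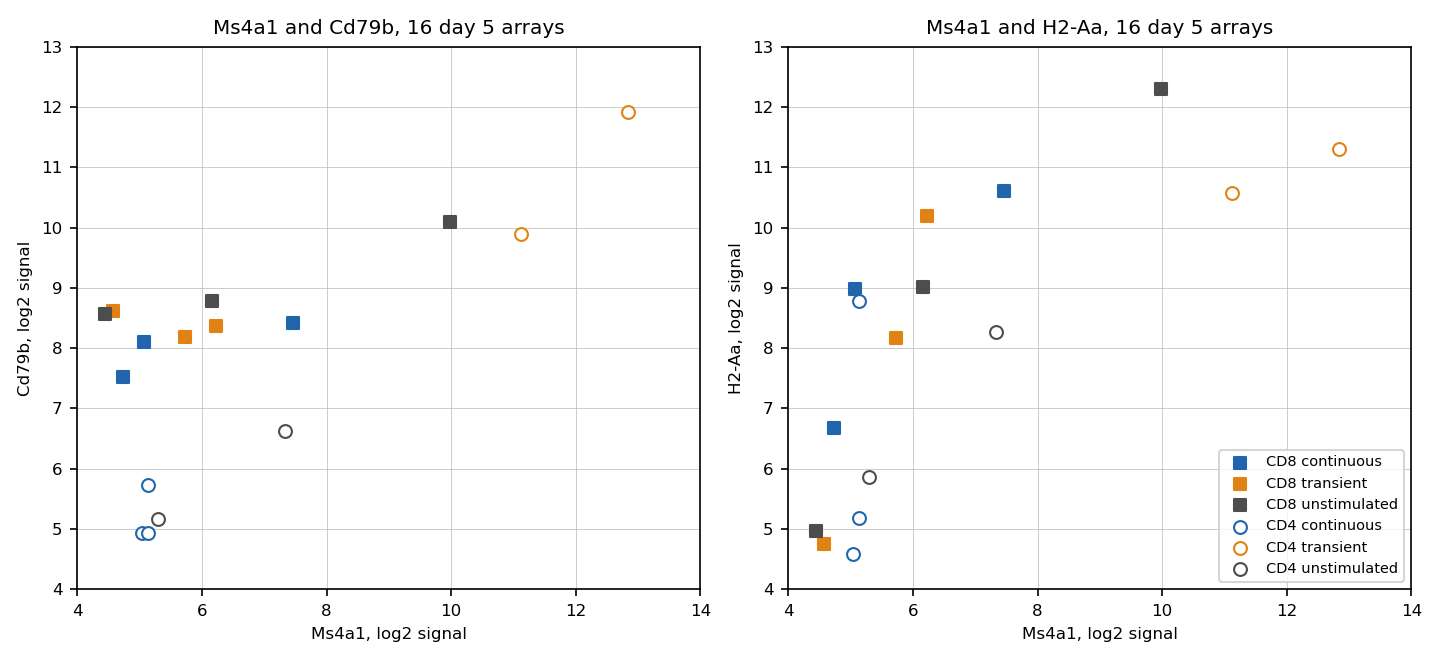
Log2 signal of Cd79b and of H2-Aa against that of Ms4a1 on the 16 day 5 arrays, with squares for CD8 and circles for CD4 arrays. At low Ms4a1 the CD8 arrays have Cd79b near 8 and the CD4 arrays near 5, while H2-Aa spreads over both cell types.

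On day 2, before any transfer to hosts, 6 of the 8 genes were on every array below both transient CD4 arrays of day 5. The exceptions were Cd74, at 9.70 on 1 stimulated CD4 array, and Cd79a, which was at 5.25, 5.11 and 5.18 on the stimulated and 7.11, 6.06 and 3.94 on the unstimulated CD4 arrays and so had its highest value of all 28 arrays in culture. H2-Aa lay between 3.90 and 4.92 and H2-Ab1 between 3.62 and 5.12 over the 12 arrays. Ms4a1 lay between 4.56 and 5.10 on the stimulated CD8 arrays, 4.69 and 5.42 on the unstimulated CD8 arrays, 4.70 and 4.87 on the stimulated CD4 arrays, and was at 7.52, 5.33 and 3.32 on the unstimulated CD4 arrays, where the last is the library that went against its label. Cd74 was at 8.84, 9.06 and 8.47 on the stimulated CD8 arrays and 7.04, 6.98 and 6.94 on the unstimulated CD8 arrays, so that the groups did not overlap. H2-Ab1 was higher too and Cd79a lower in stimulated CD8 cells without overlap, where 26.8% of all genes were higher and 13% lower. In CD4 cells Cd74 was at 8.94, 7.37 and 9.70 on the stimulated arrays and 8.67, 7.69 and 5.82 on the unstimulated arrays, with overlap. H2-Aa was higher and Cd79b lower in stimulated CD4 cells without overlap, where 29% of all genes were higher and 4.17% lower.

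None of the 8 genes passed in the day 2 comparisons of limma with all arrays. In stimulated against unstimulated CD8 cells 0 of 8 were called, where 8.35% of all genes were (7.49% higher and 0.863% lower), and 1 of 8 had an unadjusted p below 0.05. That one was Cd74, at 1.80 (SE 0.69, adjusted p = 0.127). In stimulated against unstimulated CD4 cells 0 of 8 were called, where 11.4% of all genes were, and 0 of 8 had an unadjusted p below 0.05. The difference between the CD8 and CD4 responses gave 0 of 8 calls, where 0% of all genes were called and 70 genes had an unadjusted p below 0.05, and its highest value was 2.01 for Cd79b (SE 1.15). The split of calls over all genes depended on the scaling: 93.7% of those in CD4 cells and 89.7% of those in CD8 cells were higher in stimulated cells, against 48.1% and 49.8% after quantile normalization and 55% and 58.6% after median centring.

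With both unstimulated libraries of replicate 3 left out, 3 of 8 fell in stimulated against unstimulated CD4 cells. Of all 12393 genes 65.7% were called there, 4888 lower and 3251 higher, so falls were common among all genes. The 3 members were Ms4a1 (-1.67, adjusted p = 0.0187), Cd79a (-1.40, adjusted p = 0.00185) and Cd79b (-1.23, adjusted p = 0.0204). In CD8 cells 1 of 8 rose, Cd74 (1.78, adjusted p = 0.0409). Of all genes 37.9% were called there, 2040 higher and 2651 lower. The difference of responses still gave 0 of 8 calls, with 308 calls over all genes. There its value for Cd79b was 0.42, and the highest was 1.33 for Ms4a1. The median over all genes moved to -0.31 in CD4 and -0.22 in CD8 cells without these arrays, against 0.14 in each with them. The beta-actin difference was 1.11 to 1.69 on the stimulated and 2.28 to 4.30 on the unstimulated arrays of day 2, and its part in these values was not tested.

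Among related genes on day 2, in stimulated against unstimulated CD4 cells 1 of 22 B cell lineage genes rose (Pou2af1, a coactivator of octamer factors, by 2.54, SE 0.70, adjusted p = 0.0319), 1 of 6 immunoglobulin genes fell (Ighm, with -2.19, SE 0.48, adjusted p = 0.0107) and 1 of 11 class II pathway genes rose (Rfx5, a factor of class II promoters, by 2.22, SE 0.60, adjusted p = 0.0293). Each of these 3 calls was lost under some alternative, and the adjusted p reached 0.159 for Pou2af1, 0.554 for Ighm and 0.102 for Rfx5. Of all genes 10.7% rose and 0.718% fell in this comparison. In CD8 cells 0 of 22, 0 of 6 and 0 of 11 genes of these lists were called, where 7.49% of all genes rose and 0.863% fell.

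Ordered by mean over the 10 groups, transient CD4 cells came first for 8 of 8 genes. The choice of the genes fixes their place above unstimulated CD4 cells of day 5. Because it rests on the same transient arrays, it also favours a high place among the other groups, so these orders are only a description. Of the 72 pairs of neighbouring groups in these orders, 12 differed by more than the larger of their SDs and 60 did not. For Ms4a1 and Ly6d the only such gap was that between transient CD4 cells and the next group, unstimulated CD8 cells, at 6.86 ± 2.84 and 7.43 ± 2.79 (SD, n = 3 each). For Cd79b the 3 CD8 groups of day 5 followed at 9.14 ± 0.83, 8.39 ± 0.22 and 8.01 ± 0.46 for unstimulated, transient and continuous cells, and a second gap lay between them and the stimulated CD8 cells of day 2.

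Genes with several probe sets gave similar differences only in part. In transient minus unstimulated CD4 cells of day 5, the 2 probe sets of Ms4a1 differed by 5.67 and 5.93 and those of H2-Aa by 3.88 and 4.79. Of the 3 probe sets of H2-Ab1 the one used gave 3.69 and the others 1.39 and 0.24, so its size depends on the probe set.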

How the data were processed

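RNA of 28 sorted T cell samples was measured on Affymetrix Mouse 430A2 arrays. The deposited values are log2 signals made by the authors with RMA, per the submitters' processing notes, which give no version. The array medians were not equal over the 28 arrays, so the values do not look like quantiles set jointly over all of them, and which arrays were processed together is not given in the sources used here. No detection calls were used. Of 22690 probe sets, 64 controls, 691 with several symbols and 1555 with none were left out. The 20380 others (20351 matched by Entrez number) gave 12393 genes, of which 4956 had more than 1 probe set and took the one with the highest mean. Some genes of the array are not reported here.

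Separate fits for the 2 days used limma 3.58.1 and R 4.3.3 (lmFit and eBayes, two-sided), with 12 arrays and 8 residual degrees of freedom for day 2 and 16 arrays and 10 for day 5, and called at a Benjamini-Hochberg adjusted p below 0.05 over 12393 genes. The members and gene lists were chosen with earlier results of these data known, so CD4 comparisons of day 5 have no test. Named are the members, up to 3 called genes of a list, the 12 genes nearest in profile to each group of members, and a fixed set of markers. Lists were for B cell lineage, immunoglobulin, class I and class II pathway, dendritic, macrophage, neutrophil, NK, red and T cells and other organs. The number of arrays limits the precision. Alternatives changed the probe set rule, the filter (leaving out the lowest 30% of genes, which 8 of 8 members passed), the normalization, the moderation, the arrays in the fit, array weights, the replicate block and the threshold. On simulated data for 12393 genes, limma called 82% to 86% of changes of 1 log2 unit in the day 5 comparisons, and 1% to 2% of them and 60% to 65% of changes of 3 in the day 2 comparisons within a cell type. The changed genes were drawn at random from all genes, so these shares do not hold for the members. In the day 5 fit the SE of the members ran from 0.37 for Cd79a to 1.78 for H2-Aa, against a median of 0.15 over all genes. Deviations of same-numbered replicates had a positive r in all 3 pairs for transient and unstimulated CD8 cells of day 5 (r = 0.50, 0.36 and 0.15). This also held, more weakly, for continuous and transient CD8 cells of day 5 (r = 0.17, 0.22 and 0.02), and for no other tested pair of groups.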

Additional observations from a re-analysis of the deposited data

Results flagged for a closer look

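For 3 genes every CD8 array of transient cells on day 5 lay on one side of the unstimulated mean and every CD4 array on the other, a difference between cell types that was not tested. The CD8 effect minus the CD4 effect of transient minus unstimulated cells was -7.77 for Ly6d (-1.96 in CD8 and 5.80 in CD4 cells), -7.02 for Ms4a1 (-1.35 in CD8 and 5.67 in CD4 cells) and -5.77 for Cd79b (-0.75 in CD8 and 5.01 in CD4 cells). The CD4 effects are those on which the genes were chosen. Without the first unstimulated CD8 array the CD8 effect was -0.39 for Ly6d, 0.20 for Ms4a1 and -0.28 for Cd79b.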

How the results depend on the processing

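Of 880 values of the members under the alternatives, 864 kept their side of the threshold, 16 newly passed it, 0 lost a call (there was none to lose) and 78 changed sign with no call. In stimulated against unstimulated CD4 cells of day 2, 1 member passed with array weights (Cd79a), where 35.5% of all genes were called. Without both unstimulated libraries of replicate 3, 3 members passed, where 65.7% of all genes were called. Leaving out each array in turn gave 0 to 2, the 2 without the third unstimulated CD4 array, where 26.5% were called. In CD8 cells of day 2, 1 passed with only the groups compared (Cd74), where 3.38% of all genes were called. With array weights 3 passed (Cd79a, Cd74 and H2-Ab1), where 51.8% were called. Without both unstimulated libraries of replicate 3, 1 passed, where 37.9% were called, and each array left out gave 0. The difference between the responses gave 0 throughout. In transient against unstimulated CD8 cells of day 5, leaving out each array gave 0 to 1, and in continuous against unstimulated cells also 0 to 1. The 1 in each came without the second unstimulated array, where 27.2% and 42.8% of all genes were called. With array weights 2 passed in continuous against unstimulated cells (Cd79b and Ly6d), where 52.6% were called. With the replicate number as a block, 1 member passed in continuous against unstimulated CD8 cells (Cd79b, -1.13, adjusted p = 0.0237 by limma), where 46.7% of all genes were called. The block changed no other member's call. The medians of the members in CD4 cells of day 5 ranged over arrays left out from 2.93 to 5.23 for transient minus unstimulated from -5.69 to -3.87 for continuous minus transient and from -1.22 to -0.02 for continuous minus unstimulated cells. Over all genes, leaving out each array moved the calls between 566 and 3289 for CD4 and between 387 and 1692 for CD8 cells of day 2, where the calls numbered 1409 and 1035. These became 3016 and 2684 with quantile normalization, 4565 and 3738 with median centring, 3667 and 3395 with all 28 arrays in one fit, 4402 and 6420 with array weights, 8139 and 4691 without the unstimulated libraries of replicate 3, and 521 and 366 at an adjusted p below 0.01, and in CD8 cells 419 with only the groups compared. The difference between responses had 0 calls, 4 with all 28 arrays, 11 with array weights and 308 without those libraries. With all 28 arrays in one fit the CD8 calls of day 5 were 239 for transient against unstimulated (3937 otherwise), 360 for continuous against transient (3376) and 1084 for continuous against unstimulated cells (5867). With array weights the second of these was 5135, and at an adjusted p below 0.01 the first and second were 2470 and 2150. With each of 20380 probe sets tested, the calls were 2214 and 1619 on day 2 and 6165, 5401 and 9365 on day 5, in the same order. Of 61 called results of listed genes, 12 kept their call under every alternative run. The cause of these changes was not tested. Both CD4 groups with 2 arrays have 1 left when an array is dropped, so those medians have no replicate check.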
